A study of Rattus norvegicus with 18 samples.

Results

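RoBo-1 (gene symbol Lypd8l1), neurogranin (Nrgn) and tescalcin (Tesc) are 3 of the 4736 rat genes that the arrays read under a single symbol. They were chosen from these same data, as genes whose signal stayed far below the unfractured level through the weeks of healing, most of all in the older rats. The fracture contrasts and the older against young contrast therefore chose them, and their values in those contrasts are given as a description without a test. The 3 genes are read by 4 of the 8740 probe sets analysed. Nrgn has 2 probe sets, and the brighter one represents the gene unless the dimmer one is named.

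Femora came from Sprague-Dawley rats, all female, in 3 age groups at surgery: young at 6 weeks of age, adult at 26 weeks and older at 52 weeks. At each age, femora were collected without a fracture, from sham rats, or at 3 days or 1, 2, 4 or 6 weeks after a closed mid-diaphyseal fracture held by an intramedullary rod. Each of these 18 combinations of age and time had 1 array, hybridised with RNA pooled from 2 rats (36 rats in all). Sham femora were collected at the start only, with none at later times. Changes with healing and with growth or ageing after surgery therefore cannot be told apart. The sample was the middle stretch of the femur with its callus, cortical bone and marrow together, so fewer cells of a type and less RNA per cell cannot be told apart. The groups hold 1 array each, the 3 ages stand in as replicates of a time, and p-values measure only the spread between these arrays. Bone genes were bright without a fracture (Col1a1, of bone collagen, at 2521 to 22884 and Alpl, alkaline phosphatase, at 8264 to 15864), and so were skeletal muscle genes, with all 12 measured at a mean signal of at least 200. Values are signal in arbitrary array units, with every array scaled by the authors to a common mean. A floor of 20 was set on signals before taking log2 or a ratio, and a ratio against a signal under the floor is given as a lower bound.

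RoBo-1, whose name stands for rodent bone, belongs to the Ly-6/uPAR/CD59 family of small cysteine-rich proteins held at the cell surface by a lipid anchor, and was first described in rat bone and growth plate cartilage. Neurogranin is a calmodulin-binding protein of neurons and a substrate of protein kinase C, and in humans its transcript is also found in platelets. Tescalcin is an EF-hand calcium-binding protein, a relative of the calcineurin B subunit, that binds the sodium/proton exchanger NHE1. In human cell lines it has been tied to megakaryocyte differentiation. Bone marrow, which fills the shaft of an unbroken femur, is the site where neutrophils, red cells and megakaryocytes, the parents of platelets, are made.

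The 3 genes do not lie side by side: Lypd8l1 is on chromosome 10, Nrgn on chromosome 8 and Tesc on chromosome 12. Because they moved together over the arrays, the 250 bases before each RefSeq start are shown, with capitals marking any match, on either strand, to letters that blood cell transcription factors bind. GATA factors were searched as AGATAA, or as the same letters with T first, with G last or with both. ETS factors were searched as AGGAAG, or as the same letters with C first, and RUNX factors as TGTGGT. No match overlapped another in these windows. The sequences are from RefSeq on the GRCr8 build.
Lypd8l1, chr10:43115729-43115978, plus strand: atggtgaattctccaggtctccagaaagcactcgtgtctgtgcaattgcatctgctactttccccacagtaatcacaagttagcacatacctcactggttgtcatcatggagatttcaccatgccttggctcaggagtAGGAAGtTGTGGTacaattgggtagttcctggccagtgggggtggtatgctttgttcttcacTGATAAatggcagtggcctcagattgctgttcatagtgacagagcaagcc
Nrgn, chr8:45452418-45452667, minus strand: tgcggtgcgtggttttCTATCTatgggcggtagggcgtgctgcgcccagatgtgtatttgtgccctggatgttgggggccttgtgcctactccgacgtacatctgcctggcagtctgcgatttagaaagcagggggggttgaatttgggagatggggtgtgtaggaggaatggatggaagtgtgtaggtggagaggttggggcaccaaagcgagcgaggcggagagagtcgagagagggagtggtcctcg
Tesc, chr12:44216541-44216790, minus strand: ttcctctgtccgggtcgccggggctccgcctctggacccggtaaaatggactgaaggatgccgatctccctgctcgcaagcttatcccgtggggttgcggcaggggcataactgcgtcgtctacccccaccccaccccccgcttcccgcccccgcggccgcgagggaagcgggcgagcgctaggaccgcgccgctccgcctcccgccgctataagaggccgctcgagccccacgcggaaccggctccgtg

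The Lypd8l1 window held 1 match of each kind, an ETS match at bases 112 to 107 before the start, a RUNX match at bases 105 to 100 and a GATA match at bases 50 to 45. The Nrgn window held 1 GATA match, on the opposite strand (printed as CTATCT) at bases 234 to 229, and neither of the other motifs. The Tesc window held none of these letters. Among all 33465 RefSeq promoter windows of the same length, 27.0% held a GATA match, 39.4% an ETS match and 14.5% a RUNX match, so such matches are common and a match is a description only. The windows also differed in base composition. G and C made up 71.2% of the Tesc window, 58% of the Nrgn window and 48% of the Lypd8l1 window, with a median of 51.2% over all windows.

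In the unfractured femur Lypd8l1 was among the brightest signals on the arrays, above 98.7% to 99.2% of probe sets. In order of time, from no fracture through 3 days and 1, 2, 4 and 6 weeks, its signal in young rats was 12909.7, 1533.0, 615.8, 430.7, 1248.5 and 4306.6. In adult rats it was 11436.9, 289.8, 291.0, 182.4, 427.1 and 1282.1. In older rats it was 10214.3, 176.0, 301.0, 183.8, 428.8 and 693.9. All 15 fractured arrays thus lay below all 3 arrays without fracture, and the young array was the highest of the 3 ages at every time after fracture. Lypd8l1 averaged 266 ± 143 at 2 weeks, against 11520.3 ± 1349.6 with no fracture (SD, n = 3 ages). The lowest level was reached at 2 weeks in young and adult rats and at 3 days in older rats. It was 30.0-fold below the unfractured level in young rats, 62.7-fold in adult rats and 58.0-fold in older rats.

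Nrgn was also bright in the unfractured femur, above 91.1% to 94.0% of probe sets. Over the same 6 times its signal in young rats was 1702.6, 331.4, 83.5, 35.3, 344.4 and 452.7. In adult rats it was 2588.7, 60.6, 18.4, 14.8, 87.8 and 114.7. In older rats it was 1873.1, 77.0, 53.4, 23.2, 39.1 and 74.8. Every fractured array was again below every unfractured one. The lowest time was 2 weeks in young and older rats, and in adult rats both 1 and 2 weeks were under the floor. At 2 weeks Nrgn averaged 24.4 ± 10.3, against 2054.8 ± 470.2 with no fracture (SD, n = 3 ages). The level in young rats was 48.2-fold below no fracture, in older rats 80.7-fold below, and in adult rats, where the signal was under the floor, at least 129-fold below.

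The dimmer Nrgn probe set, which reads the same GenBank entry and is no independent measurement, also fell at every age and stayed below its unfractured level. In time order its signal in young rats was 1027.8, 127.4, 12.1, 65.0, 189.8 and 318.7. In adult rats it was 1663.8, 30.0, 7.2, 17.8, 65.1 and 38.0. In older rats it was 719.5, 9.8, 12.7, 7.1, 21.6 and 16.1. Unlike the brighter probe set, it was under the floor in older rats at 6 weeks as well, so its level there is known only as an upper bound.

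Tesc was the dimmest of the 3 genes, above 73.7% to 77.6% of probe sets in the unfractured femur, and rests on a single probe set designed from an expressed sequence tag. In time order its signal in young rats was 463.3, 18.1, 16.6, 12.2, 114.7 and 204.4. In adult rats it was 479.3, 19.0, 16.0, 16.5, 28.8 and 30.3. In older rats it was 534.9, 13, 18.7, 19.8, 28.9 and 22.6. The 3 unfractured arrays were close to each other (492.5 ± 37.6, SD, n = 3 ages), and all 9 arrays from 3 days to 2 weeks were under the floor of 20. Over those weeks Tesc was at least 23.2-fold below no fracture in young rats, at least 24.0-fold in adult rats and at least 26.7-fold in older rats. Neither the order of the ages nor that of the times can be read there. In older rats at 6 weeks Tesc was brighter than 18.3% of probe sets, and in young rats than 56.6%.

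**Figure D1:**
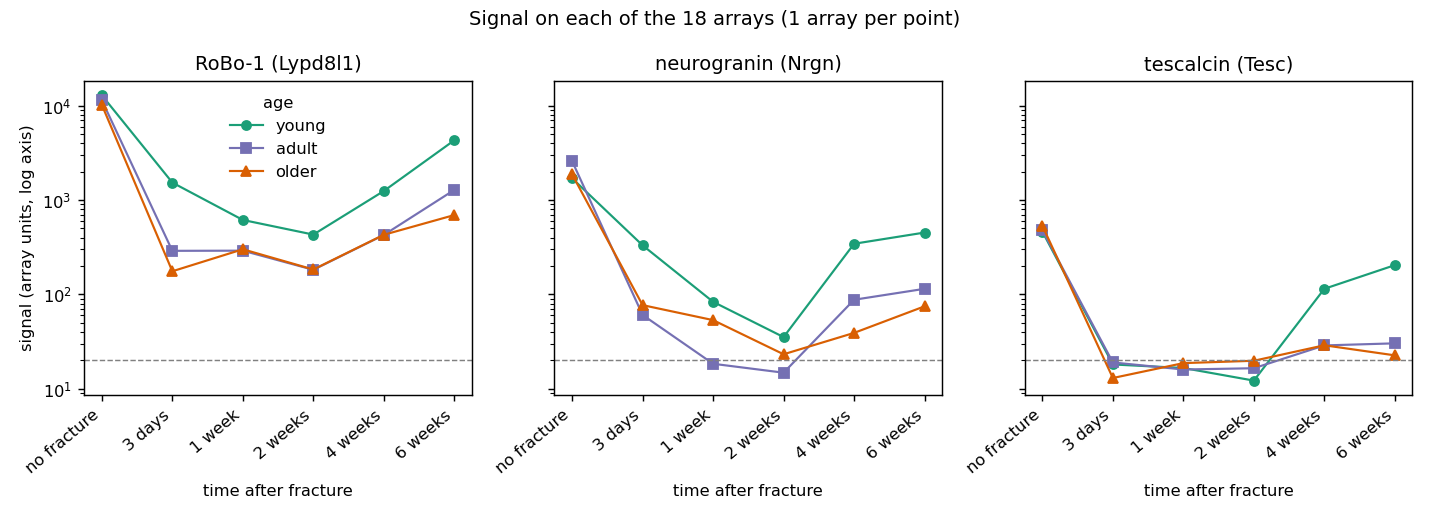
Signal of RoBo-1, neurogranin (brighter probe set) and tescalcin on each of the 18 arrays, on a log axis, against time after fracture. Each point is 1 array (circles young, squares adult, triangles older), and the dashed line is the floor of 20. For all 3 genes the fractured arrays lie below the unfractured ones, and at 4 and 6 weeks the young array is the highest.

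The 3 genes were among the most reduced on the array. The mean log2 change of Lypd8l1 over the 3 ages was -4.75 ± 1.47 at 3 days, -4.92 ± 0.47 at 1 week, -5.56 ± 0.57 at 2 weeks, -4.23 ± 0.75 at 4 weeks and -2.87 ± 1.17 at 6 weeks (SD, n = 3). That of Nrgn was -4.13 ± 1.58 at 3 days, -4.26 ± 1.73 at 4 weeks and -3.68 ± 1.54 at 6 weeks. At 1 and 2 weeks, when the adult array was under the floor, the Nrgn means of -5.50 and -6.31 are bounds, and the changes were that low or lower. That of Tesc was -3.43 ± 1.23 at 4 weeks and -3.24 ± 1.81 at 6 weeks, and at the first 3 times, with all its fractured arrays under the floor, it is bounded at -4.62 or lower. Counted from the lowest change among 4736 genes, Lypd8l1 ranked between 2 and 9 over the 5 times. Among times with no array under the floor, Nrgn ranked 24 at 3 days, 1 at 4 weeks and 2 at 6 weeks, and Tesc 6 at 4 weeks and 5 at 6 weeks. At 4 weeks Nrgn was the most reduced gene of all, Lypd8l1 came at place 2 and Tesc at place 6.

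In a limma fit over all probe sets, with an adjusted p below 0.05 as the threshold, all 3 genes were called lower at each of the 5 times. The share of all probe sets called lower was 20.4% at 3 days, 17.8% at 1 week, 16.8% at 2 weeks, 9.7% at 4 weeks and 7.11% at 6 weeks. The genes were chosen on this contrast, so nothing is read from their count. At 6 weeks it was 0 of 3 without the adult arrays and 0 of 3 without the older arrays. At 4 weeks it was 0 of 3 without the adult arrays and 1 of 3 without the older arrays. Fewer arrays were then fitted. Among fits with 1 age left out, calls over all probe sets were fewest without the adult arrays at 4 weeks and without the older arrays at 6 weeks. The 6-week change without the adult arrays was -2.73 for Lypd8l1 and -3.28 for Nrgn, and without the older arrays -2.37 and -3.20.

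Recovery was partial in young rats and slight at the other ages. At 4 weeks Lypd8l1 stood at 9.67% of its unfractured level in young rats, 3.73% in adult rats and 4.20% in older rats, and at 6 weeks at 33.4%, 11.2% and 6.79%. Nrgn stood at 20.2%, 3.39% and 2.09% at 4 weeks, and at 26.6%, 4.43% and 3.99% at 6 weeks, in the same order of ages. The dimmer Nrgn probe set stood at 31.0% in young and 2.28% in adult rats at 6 weeks, and in older rats, where it was under the floor, it was at least 36.0-fold below no fracture. Tesc stood at 24.8%, 6.01% and 5.40% at 4 weeks and at 44.1%, 6.32% and 4.23% at 6 weeks. None of the 3 genes was back at its unfractured level at any age. At 6 weeks the median over all genes was 100% of the unfractured level in young rats, 92.0% in adult rats and 100% in older rats.

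The extent of the climb from the lowest point also differed by gene. In young rats the 6-week signal of Lypd8l1 was 10 times its lowest signal, in adult rats 7.03 times and in older rats 3.94 times. For Nrgn these ratios were 12.8 in young rats, at least 5.74 in adult rats, whose lowest signal was under the floor, and 3.22 in older rats. On the dimmer Nrgn probe set they were at least 15.9 in young and at least 1.9 in adult rats. In older rats both of its signals were under the floor, so no climb could be read. Tesc in older rats ended at 1.13 times the floor, that is, hardly above it.

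Older and young rats differed far less before fracture than at 4 and 6 weeks. Without a fracture the older minus young difference was -0.34 on the log2 scale for Lypd8l1, 0.14 for Nrgn and 0.21 for Tesc. On the dimmer Nrgn probe set it was -0.51, of the opposite sign to the brighter one. At 4 weeks Lypd8l1 was 2.91-fold lower in older than in young rats, Nrgn 8.81-fold and Tesc 3.97-fold. At 6 weeks Lypd8l1 was 6.21-fold lower, Nrgn 6.05-fold and Tesc 9.04-fold. Over the 4- and 6-week pairs of arrays the mean difference was -2.09 ± 0.77 for Lypd8l1, -2.87 ± 0.38 for Nrgn and -2.58 ± 0.84 for Tesc (SD, n = 2 times). The gap was not confined to the late weeks. At 3 days Lypd8l1 was 8.71-fold and Nrgn 4.30-fold lower in older than in young rats, and at 1 and 2 weeks both differences were smaller, between 1.52-fold and 2.34-fold.

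Adult rats were nearer to older than to young rats. At 4 weeks the older minus adult difference was 0.01 for Lypd8l1 and 0.01 for Tesc, and -1.17 for Nrgn. At 6 weeks it was -0.89 for Lypd8l1, -0.62 for Nrgn and -0.42 for Tesc. The adult minus young differences at 6 weeks were -1.75, -1.98 and -2.75 for the same genes. The late low level was thus a difference of both adult and older rats from young rats, and only 1 array stands behind each value.

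**Figure D2:**
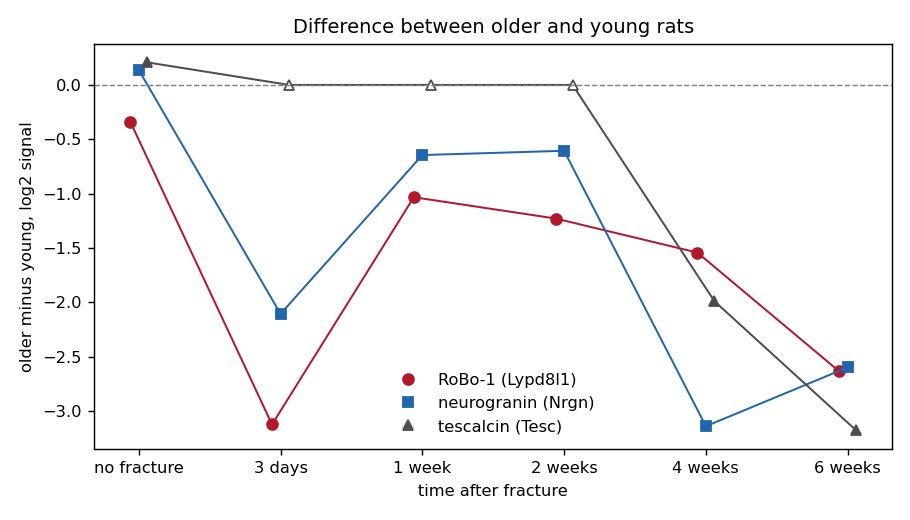
Older minus young difference in log2 signal against time after fracture for RoBo-1, neurogranin (brighter probe set) and tescalcin, with 1 array of each age behind each point. Open triangles are times when Tesc was under the floor at both ages, so that no difference could be read. The differences at 4 and 6 weeks lie between -1.54 and -3.18, and those without a fracture between -0.34 and 0.21.

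Of the 3 genes, 1 (Tesc) was called lower in older rats over 4 and 6 weeks in a limma fit with age nested in phase, where 0.801% of all probe sets were called lower and 0.435% higher. The spread in that fit came partly from the 1- and 2-week arrays. There every Tesc array was under the floor and counted as equal, which narrowed its spread by construction. The genes were chosen on this contrast too, and the count moved between 1 and 3 over the other settings. After quantile normalization or with a floor of 100 the gene called was Nrgn and not Tesc. By size of the late difference Nrgn was at place 2, Tesc at place 4 and Lypd8l1 at place 14 from the lowest of 4736 genes.

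RNA quality moved with the same groups. The ratio of 3' to 5' actin control signals was 1.48 to 2.72 after fracture and 2.10 to 2.61 without a fracture. At 6 weeks it was 2.72 in young rats, 2.27 in adult rats and 1.89 in older rats, the same order as the recovery of the 3 genes. At 4 weeks, when the genes already differed between the ages, it was 1.90 in young rats, 1.71 in adult rats and 1.79 in older rats. Its part in the result was not tested. The scaled mean of every array was 499.98 to 499.99, the median signal 133 to 165, and 12.2% to 20.1% of probe sets lay under the floor.

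The 3 profiles resembled each other. Over the 18 arrays the Pearson correlation of log2 signals was 0.951 between Lypd8l1 and Nrgn, 0.920 between Lypd8l1 and Tesc and 0.906 between Nrgn and Tesc. Over the 15 fractured arrays alone it was 0.859, 0.740 and 0.699. After the mean of each time was subtracted, which leaves the differences between the ages, it was 0.871, 0.633 and 0.707. All correlations here are descriptions, since arrays share ages and times, and the genes were chosen for a common profile.

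Several of the genes most like them belong to granulocytes and megakaryocytes, cells made in the marrow. Likeness was the Pearson correlation over the 18 arrays among the 2485 genes with a mean signal of at least 200, and the 5 highest are named for each gene. Closest to Lypd8l1 were Padi4 (0.974), which citrullinates histones in neutrophils, and Ceacam4 (0.969), of the carcinoembryonic antigen family of adhesion molecules. Defa5 (0.968), a defensin whose probe set may cross-read other defensins, Srgn (0.964), the proteoglycan of blood cell granules, and Itga2b (0.955), the platelet integrin chain that pairs with Itgb3, followed. Closest to Nrgn were Pf4 (0.978), the platelet factor 4 of megakaryocyte granules, and Pla2g2a (0.962), a secreted phospholipase. Srgn (0.959), Lypd8l1 itself (0.951) and Arrb2 (0.951), an arrestin that regulates receptors, came next. Closest to Tesc were Slbp (0.975), which binds the ends of histone messages in dividing cells, Arrb2 (0.964) and Prg2 (0.962), the major basic protein of eosinophil granules. Itga2b (0.956) and Samd1 (0.955) completed its list.

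The neighbours were chosen over arrays that include the 6-week ones. An age gap of the same direction at 6 weeks was largely set by that choice, and the values are a description. Prg2 was at 1.55% of its unfractured level in older rats and 47.9% in young rats, and Defa5 at 9.44% in older and 56.3% in young rats. Padi4 was at 8.27% in older and 27.4% in young rats, and Slbp at 25.8% in older and 61.5% in young rats. The gap was smaller for Samd1, at 38.8% in older and 50.5% in young rats. Which genes came closest depended on the arrays used. Of the 5 neighbours, 3 for Lypd8l1, 4 for Nrgn and 2 for Tesc were again among the closest 5 over the 15 fractured arrays, and 3, 1 and 2 after the mean of each time was subtracted. In both of these settings S100a9 and S100a8, the calcium-binding proteins of neutrophils, entered the list of Lypd8l1, and Pf4 remained in that of Nrgn.

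Among lists of genes that mark cell types, the neutrophil, erythroid and platelet lists had the highest medians over the 18 arrays. The 8 measured neutrophil genes had a median correlation of 0.928 with Lypd8l1, 0.874 with Nrgn and 0.827 with Tesc. For the 15 erythroid genes the medians were 0.808, 0.746 and 0.806, and for the 13 megakaryocyte and platelet genes 0.677, 0.598 and 0.699. The median over all genes was 0.109 for Lypd8l1, 0.109 for Nrgn and 0.123 for Tesc. The order below the neutrophil list depended on the arrays used. Over the 15 fractured arrays the neutrophil medians were 0.918, 0.796 and 0.680, the B cell medians (4 genes) 0.667, 0.538 and 0.732, the erythroid medians 0.632, 0.508 and 0.667, the eosinophil and mast cell medians (14 genes) 0.603, 0.50 and 0.735, and the platelet medians 0.539, 0.357 and 0.596. For Tesc the eosinophil and mast cell and the B cell lists then came before the neutrophil list. With the mean of each time subtracted, the neutrophil medians were 0.866, 0.80 and 0.503 and the erythroid medians 0.601, 0.597 and 0.373. The eosinophil and mast cell medians were then 0.516, 0.510 and 0.478, the osteoclast medians 0.512, 0.315 and -0.18 and the platelet medians 0.447, 0.497 and 0.354. The platelet list was also mixed. Itga2b correlated at 0.955, 0.937 and 0.956, Pf4 at 0.951, 0.978 and 0.908 and Gp5, a subunit of the receptor for von Willebrand factor, at 0.898, 0.882 and 0.901. Selp, P2ry12 and Vwf lay between 0.34 and 0.60, and Itgb3, F13a1 and Tbxas1 between -0.27 and 0.11.

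The other cell lists ranged widely over the 18 arrays. The 4 B cell genes had medians of 0.573 with Lypd8l1, 0.535 with Nrgn and 0.607 with Tesc, the 8 adipocyte genes of 0.457, 0.373 and 0.496 and the 9 Schwann cell genes of 0.443, 0.480 and 0.462. Neuron genes (17 measured) had medians of 0.308, 0.245 and 0.390. The medians of the 9 osteoblast genes were -0.60, -0.66 and -0.65, those of the 7 cartilage genes -0.65, -0.69 and -0.73 and those of the 6 macrophage genes -0.30, -0.37 and -0.33. Several of these turned when the unfractured arrays were left out. Over the 15 fractured arrays the osteoblast medians were 0.339, 0.173 and 0.226, the macrophage medians 0.157, 0.002 and 0.125, and the neuron medians -0.04, -0.03 and 0.18, while the cartilage medians stayed negative at -0.35, -0.51 and -0.37. With the mean of each time subtracted, the osteoblast medians were 0.208, 0.059 and 0.119 and the neuron medians -0.11, -0.18 and 0.17. Neuronal genes were dim in this tissue. Of the 17, 2 reached a mean signal of 200 in the unfractured femora, while 13 of 15 erythroid and 6 of 8 neutrophil genes did.

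**Figure D3:**
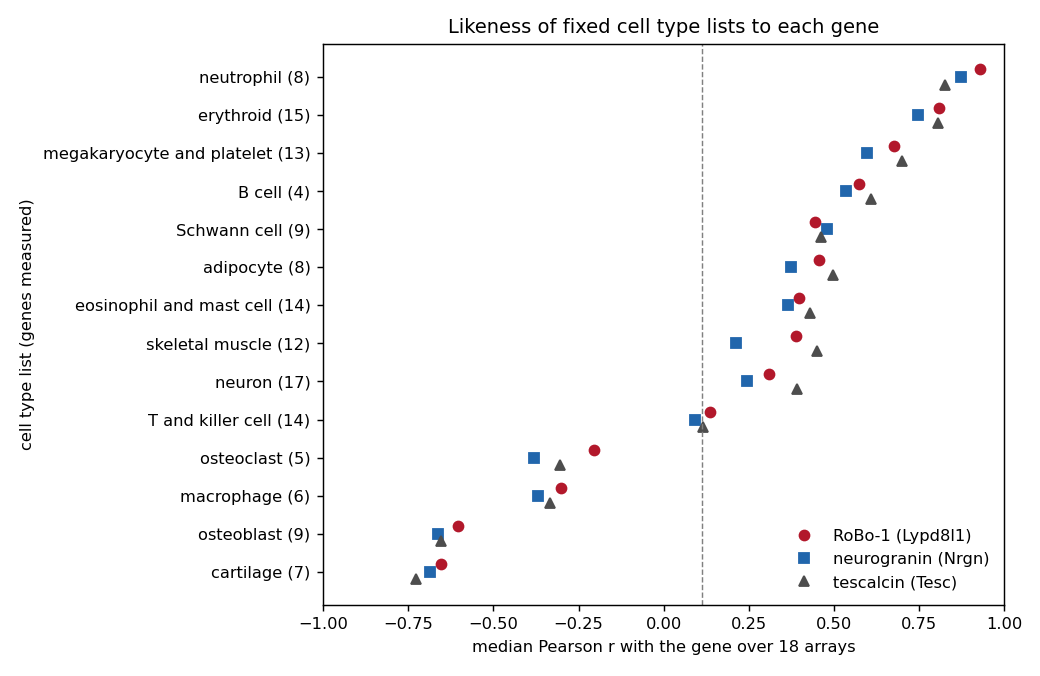
Median Pearson correlation over 18 arrays between each of RoBo-1, neurogranin and tescalcin and the measured genes of 14 fixed cell type lists, with the number of genes in brackets. The dashed line is the mean of the 3 medians over all genes. Over these 18 arrays neutrophil, erythroid and platelet lists lie highest, osteoblast and cartilage lists lowest. Over the 15 fractured arrays the osteoblast medians are above 0.

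Neutrophil genes fell early as the 3 genes did, but stood closer to their unfractured level at 6 weeks. Their median was then 69.5% of no fracture in young rats, 28.3% in adult rats and 19.3% in older rats. Lypd8l1, Nrgn and Tesc stood at 26.6% to 44.1% in young, 4.43% to 11.2% in adult and 3.99% to 6.79% in older rats. At 1 week 7 of the 8 neutrophil genes fell and 0 rose (median log2 change -3.67). Of all probe sets 17.8% were called lower and 18% higher, and the median of all genes was -0.07. S100a9 fell by 4.11 (SE 0.59, limma adjusted p = 0.000525) and S100a8 fell by 4.25 (SE 0.67, adjusted p = 0.000841). At 6 weeks 3 of the 8 were still lower (median -1.53), where 7.11% were called lower and 8.34% higher, and the median of all genes was -0.04. The 6-week count was 0 of 8 without the adult arrays, 0 of 8 without the older arrays and 6 of 8 without the young arrays. Fewer arrays were fitted in each case, and calls over all probe sets were then fewest without the older arrays. The summed signal of the 8 genes at 4 and 6 weeks was 6908.8 to 9959.0 in older rats and 24452 to 46219 in young rats, and 58331 to 77747 without a fracture. Their older against young difference at 4 and 6 weeks had a median of -1.84 and passed the test for 0 of 8 genes, with S100a9 at -2.41 (SE 0.31, adjusted p = 0.0511). With probe sets under a mean signal of 200 left out, 4 of them were lower in older rats.

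At 3 days the neutrophil genes also had the age gap seen for Lypd8l1 and Nrgn. Their median level was 33.3% of no fracture in young rats, 3.26% in adult rats and 3.95% in older rats. At the same time Lypd8l1 stood at 11.9% in young rats, 2.53% in adult rats and 1.72% in older rats, and Nrgn at 19.5%, 2.34% and 4.11%. The part of neutrophil RNA in the levels of the 3 genes was not tested.

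Megakaryocyte and platelet genes fell too, and 2 of them, Pf4 and Itga2b, also differed between the ages. At 1 week 8 of 13 fell and 0 rose (median -1.56), where 17.8% of all probe sets were called lower and 18% higher. At 6 weeks 6 of 13 were lower and 0 higher (median -0.76), beside 7.11% and 8.34% of all probe sets. That 6-week count was 0 without the adult arrays and 0 without the older arrays, where fewer arrays were fitted. Calls over all probe sets were then fewest without the older arrays. Pf4 fell by 3.26 at 1 week (SE 0.29, limma adjusted p = 5.05e-05) and fell by 1.82 at 6 weeks (adjusted p = 0.00353). Itga2b fell by 3.45 at 1 week (SE 0.36, adjusted p = 8.73e-05) and by 2.72 at 6 weeks (adjusted p = 0.00118). Tbxa2r, the thromboxane receptor, fell by 1.56 at 1 week (adjusted p = 0.00214). At 4 and 6 weeks Pf4 was 2.47-fold lower in older than in young rats (adjusted p = 0.0439) and Itga2b 2.42-fold lower (adjusted p = 0.0431). They made 2 of 13 genes called lower, with 0 called higher, where 0.801% of all probe sets were called lower and 0.435% higher. The list median was -0.42, beside -0.01 over all genes. This late count was 1 after quantile normalization and 4 with a floor of 100. Tbxa2r was at -1.33 (adjusted p = 0.0676). At 6 weeks Pf4 stood at 60.5% of no fracture in young rats, 19.1% in adult rats and 19.6% in older rats, and Itga2b at 33.6%, 10.2% and 10.2%. The summed signal of the 13 genes at 4 and 6 weeks was 3265 to 3404 in older rats and 5944 to 8104 in young rats, and 13717 to 19585 without a fracture.

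Erythroid genes fell early and were closer to their unfractured level late. At 1 week 13 of 15 fell and 0 rose (median -2.95), where 17.8% of all probe sets were called lower and 18% higher. Among those that fell was Alas2, which starts heme synthesis in red cell precursors (-4.64, SE 0.55, limma adjusted p = 0.000178). The globin Hbb fell by 2.86 (SE 0.46, adjusted p = 0.000928). At 6 weeks 6 of 15 were lower and 0 higher (median -1.39), beside 7.11% and 8.34% of all probe sets. The count was 10 without the young arrays, 1 without the adult arrays and 1 without the older arrays, each with fewer arrays fitted. Alas2 was then at -1.44 (adjusted p = 0.102) and Hbb at -0.25 (adjusted p = 0.809). The list median at 6 weeks was 79.9% of no fracture in young rats, 22.7% in adult rats and 33.8% in older rats, so the ages differed here too. At 6 weeks Hbb was above its unfractured level in young rats, whereas the 3 genes stood at 26.6% to 44.1% at that age. At 4 and 6 weeks 0 of 15 passed the test between older and young rats (median -0.74).

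The eosinophil and mast cell list did not move as 1 group. Prg2, at place 3 by signal, was lower at 1 week, with the adult array under the floor (bound of -6.30, limma adjusted p = 0.000316), and fell by 3.73 at 6 weeks (SE 0.83, adjusted p = 0.014). Its late older against young difference was -3.41 (adjusted p = 0.0649). The brightest gene, the mast cell chymase Cma1, fell by 2.61 at 1 week (SE 0.39, adjusted p = 0.000655) and was at 0.30 at 6 weeks (adjusted p = 0.682). It then stood at 92.4% of no fracture in older rats and 254% in young rats. The next, the tryptase Tpsb2, was at -0.30 at 1 week (adjusted p = 0.396) and rose by 0.88 at 6 weeks (SE 0.25, adjusted p = 0.0399). It then stood at 254% in older rats and 195% in young rats.

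**Figure D4:**
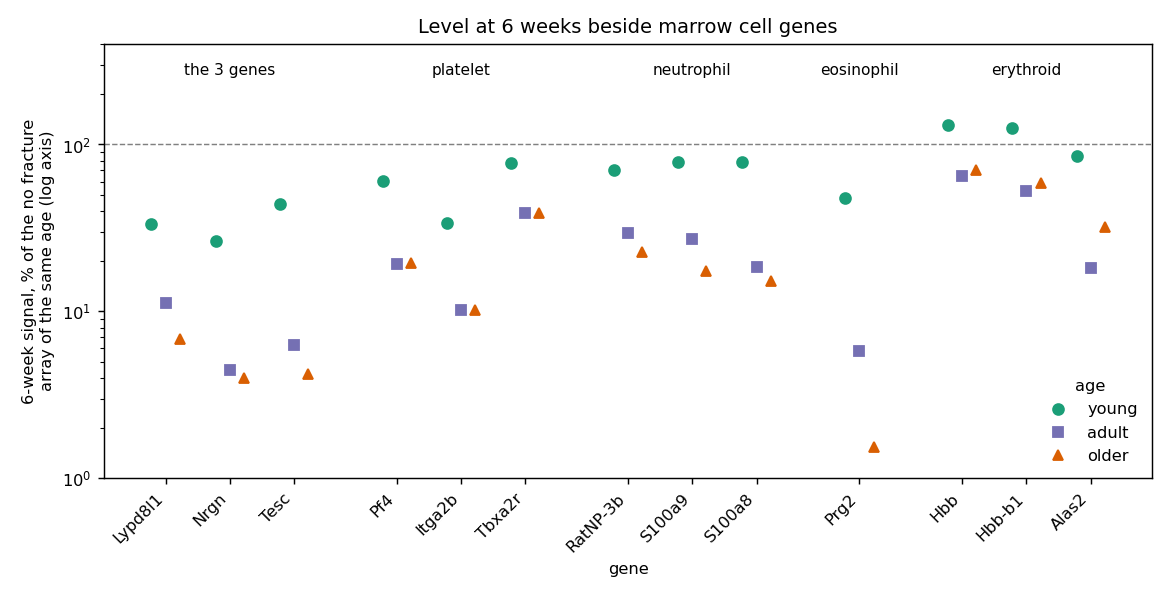
Signal at 6 weeks as a percentage of the unfractured array of the same age at surgery, on a log axis, for RoBo-1, neurogranin and tescalcin. Beside them are the 3 brightest platelet, neutrophil and erythroid genes and the eosinophil gene Prg2. Each point is 1 array (circles young, squares adult, triangles older) and the dashed line is 100%. In each gene shown the young array is the highest of the 3 ages, and Lypd8l1, Nrgn and Tesc are at 4% to 11% in adult and older rats. The brighter mast cell genes Cma1 and Tpsb2 are not shown, and Tpsb2 was at 254% in older and 195% in young rats.

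In the fit over the 3 ages, tissue genes of the callus moved the other way. Of 9 osteoblast genes 5 were higher at 1 week and 3 at 6 weeks with 0 lower, and of 7 cartilage genes 7 and 5 with 0 lower. Of all probe sets 18% were called higher at 1 week and 8.34% at 6 weeks. The osteoblast median was 81.9% of no fracture at 1 week and 111% at 6 weeks in young rats. It was 244% and 309% in adult rats, and 321% and 343% in older rats. The young cartilage median was 125% at 6 weeks. Few neuron genes passed the test. Scn9a and Scn10a, sodium channels of sensory neurons, were lower at 1 week and Uchl1, an enzyme of neurons, was higher, and at 6 weeks 1 of 17, Camk2a, was lower. In older against young rats at 4 and 6 weeks 0 of 17 neuron genes passed the test, where 0.801% of all probe sets were called lower and 0.435% higher, so a count of 0 says little about these genes. Of 9 Schwann cell genes 1, Pmp22, a myelin protein gene also expressed outside nerve, was higher in older rats (1.04, SE 0.09, limma adjusted p = 0.0311) and 0 lower.

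The remaining cell lists are given by their counts. Of all probe sets 17.8% were called lower and 18% higher at 1 week, and 7.11% and 8.34% at 6 weeks. Of 14 eosinophil and mast cell genes 8 were lower and 0 higher at 1 week, and 4 lower and 4 higher at 6 weeks. In older against young rats at 4 and 6 weeks 2 were lower, Mcpt9 and Mcpt3, both of them dim, with mean signals of 23.2 and 19.0. Of 4 B cell genes 2 were lower at 1 week and 0 at 6 weeks, and of 14 T and killer cell genes 5 and 0. Of 6 macrophage genes 1 was lower and 2 higher at 1 week and 1 higher at 6 weeks, while of 5 osteoclast genes 3 were higher at each of these times. Of 8 adipocyte genes 3 were lower at 1 week and 0 at 6 weeks, and of 12 skeletal muscle genes 4 and 0. In older against young rats at 4 and 6 weeks none of the B cell, T and killer cell, macrophage, osteoclast, osteoblast, adipocyte and muscle genes passed limma's test, and of the cartilage genes 1, Comp, was higher.

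Among 6 other Ly-6/uPAR family genes measured, Plaur, the urokinase receptor, was the 1 gene called. It rose by 0.61 at 3 days (SE 0.21, limma adjusted p = 0.0391), fell by 0.83 at 2 weeks (adjusted p = 0.0117) and fell by 0.66 at 4 weeks (adjusted p = 0.0468). At 1 week and 6 weeks and in older against young rats 0 of the 6 were called. The shares of all probe sets called lower were 17.8%, 7.11% and 0.801%, so a count of 0 of 6 says little. Cd59b, a complement inhibitor, was at 0.36 at 1 week (SE 0.16, limma adjusted p = 0.104). Ly6c was at -0.24 (SE 0.29, adjusted p = 0.575).

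A list drawn up around neurogranin held 21 measured genes of calmodulin, protein kinase C and other calmodulin-related proteins, not all of them partners of neurogranin. Of these, 4 were lower and 6 higher at 1 week. Of all probe sets 17.8% were then called lower and 18% higher, so the lower count was near the background share. Prkcb, a protein kinase C isoform of blood cells and neurons, fell by 2.73 at 1 week (SE 0.28, limma adjusted p = 8.36e-05) and fell by 1.04 at 6 weeks (adjusted p = 0.0288). Prkcd fell by 1.11 at 1 week (adjusted p = 0.000185). Calm2, a calmodulin gene, rose by 0.59 (SE 0.20, adjusted p = 0.041). At 6 weeks 6 were lower and 2 higher, beside 7.11% and 8.34% of all probe sets, and 0 passed the test between older and young rats.

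Of 10 sodium/proton exchangers and calcium sensors related to tescalcin, 1 was higher and 0 lower at 1 week, the calcium sensor Hpcal1 (1.11, SE 0.23, limma adjusted p = 0.00399). Of all probe sets 18% were then called higher and 17.8% lower. At 6 weeks Hpcal1 was again the 1 gene called (0.83, adjusted p = 0.0359), beside 8.34% of all probe sets higher and 7.11% lower. It was called higher at all 5 times, and Calb2, another calcium-binding protein gene, was called lower at 3 days.

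The study itself listed 8 nerve-related genes for a prolonged fall in older rats, among them Lypd8l1 and Nrgn, and it chose them with these samples among others. Of the other 6, Npy, which encodes neuropeptide Y, fell by 2.91 at 1 week (SE 0.34, limma adjusted p = 0.000158) and by 1.74 at 6 weeks (adjusted p = 0.00788). The remaining 5, Sncg, Nnat, Acsl6, Prlhr and Gabbr2, were not called at 1 or 6 weeks, and of these Prlhr was lower at 2 weeks (-1.47, SE 0.43, limma adjusted p = 0.023). In older against young rats at 4 and 6 weeks 0 of the 8 passed the test on all probe sets, and Npy was at -0.66 (adjusted p = 0.122).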

How the data were processed

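Signals of 8799 probe sets on 18 Affymetrix rat genome arrays were analysed. The deposited values are signal intensity, which the authors computed with Microarray Suite 5.0 and scaled to a target of 500 on every array, so a value is a share of its array's signal. Precision is limited by 1 array per age and time, and detection calls were not used. After 59 control probe sets were left out, 8740 were tested, of which 7006 name 1 gene by the platform annotation, 308 several and 1426 none. Genes with more probe sets than 1 were represented by the brightest on the log2 scale.

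Log2 was taken after a floor of 20. The limma package (3.58.1, in R 4.3.3) fitted time plus age, and, for older against young rats, age nested in phase, with a trend in the variance. Residual degrees of freedom were 10 and 4. P-values were Benjamini-Hochberg adjusted over 8740 probe sets, with a threshold of 0.05. The fit was tested on simulated data. Alternatives were quantile normalization, a floor of 100, log2(signal + 50), a mean signal of at least 200, no variance trend, the methods' t-test, the other probe set and leaving out each age.

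The 3 genes, the 18 gene lists and the tests were chosen with earlier results of these data known. Genes named besides the 3 are the 5 most like each, the 3 brightest of a list and called genes of short function lists. Exceptions named after their values were seen are Mcpt9, Mcpt3, Gp5, Selp, P2ry12, Vwf, Itgb3, F13a1, Tbxas1, Scn9a, Scn10a, Camk2a, Comp, Prkcb and Prkcd, and the genes of the study's own list.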

Additional observations from a re-analysis of the deposited data

How the results depend on the processing

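Each fractured array was set against the unfractured array of the same age at surgery throughout, not of the same age at collection. A further pairing by replicate number could not be made, since each combination of age and time holds 1 array. Of 129 recomputed values of the 3 genes none changed sign, 115 stayed within 1 SD of the value given and 14 moved further, over a range of -6.68 to -0.61. The late older minus young difference of Nrgn (-2.87) was -1.98 with a floor of 100, -2.08 with log2(signal + 50) and -3.56 on the dimmer probe set. For Tesc the 1-week change (-4.62) was -2.30 and -3.01, and the late difference (-2.58) was -0.61 and -1.44, with a floor of 100 and with log2(signal + 50). A higher floor or constant compresses these dim values by its construction. The number of probe sets called moved far more. At 3 days 3437 were called, and 1742 to 2776 with 1 age left out. At 1 week it was 3126, and 1051 to 2684, at 2 weeks 2868, and 884 to 2458, at 4 weeks 1855, and 37 to 2011, and at 6 weeks 1350, and 46 to 1636. The lowest counts came without the adult arrays at 3 days, 1 week and 4 weeks and without the older arrays at 2 and 6 weeks. Fewer arrays were then fitted. The methods' t-test after Benjamini-Hochberg adjustment called 1545, 1512, 821, 47 and 12 at the 5 times. With a mean signal of at least 200, 2056 were called at 1 week, and 415 in older against young rats, where 108 were called without the filter; fewer probe sets were then tested. Among the 3 genes, that late call was made for Nrgn alone after quantile normalization or with a floor of 100, for Lypd8l1 and Nrgn with the filter, which leaves Tesc out, and for all 3 without the variance trend.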
